A study of Homo sapiens with 4 samples.

Results

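Tenascins are large glycoproteins of the extracellular matrix, and 3 genes of this family were examined: TNC (tenascin-C), TNR (tenascin-R) and TNN (tenascin-W). ATAC-seq, which reads out open chromatin as the places where an added transposase can insert, was run on A375, an established human melanoma cell line. Both groups were A375 cells in DMEM with 10% FBS: 2 libraries came from cells given 1 mM octanoate, a medium-chain fatty acid, for 48 h, and 2 from cells given the solvent isopropanol for as long. The labels do not say that the libraries came from separate cultures, so p-values measure only the spread between these libraries, which may be technical. The members are the open regions of the authors' deposited table that overlap the RefSeq span of a gene extended by 10 kb on both sides. There were 53 such regions of 125986: 13 at TNC, 30 at TNR and 10 at TNN. The genes themselves were picked from results of this same comparison, that is, with its log2 fold changes and adjusted p-values known. The values below therefore describe these loci and support nothing further.

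Tenascin chains join at their amino-terminal ends into oligomers and carry EGF-like repeats, fibronectin type III repeats and a fibrinogen-like domain at the carboxy terminus. TNC is scarce in most adult tissues, reappears in wounds and in tumour stroma, and is made by melanoma cells, where it has been tied to invasive growth. TNR is largely a protein of the central nervous system, deposited by oligodendrocytes and neurons in perineuronal nets, and TNN is known from developing bone and from tumour stroma. TNN and TNR lie near each other on the long arm of chromosome 1, with KIAA0040 between them, and TNC lies on the long arm of chromosome 9.

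The 250 bases before the annotated starts of TNC and TNN are shown because they differed in whether an open region was listed over them. The sequences are from RefSeq (GRCh38.p14), 5′ to 3′ on the gene's own strand, and capitals mark the motif matches described below. The TNC window is chr9:115118158-115118407 on the reverse strand, and the TNN window is chr1:175067583-175067832 on the forward strand. The RefSeq table of starts matched 2 of the 3 genes, TNC and TNN.
TNC: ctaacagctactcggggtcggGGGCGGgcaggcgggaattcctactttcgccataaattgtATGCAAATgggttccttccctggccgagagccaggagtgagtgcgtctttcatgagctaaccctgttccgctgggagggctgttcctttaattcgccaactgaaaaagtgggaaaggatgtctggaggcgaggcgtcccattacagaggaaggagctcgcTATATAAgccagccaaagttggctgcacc
TNN: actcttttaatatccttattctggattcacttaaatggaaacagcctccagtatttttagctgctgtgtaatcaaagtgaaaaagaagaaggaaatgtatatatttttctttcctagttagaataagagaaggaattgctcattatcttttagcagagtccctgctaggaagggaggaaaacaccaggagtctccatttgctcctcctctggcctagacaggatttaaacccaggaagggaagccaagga

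The TNC window lay inside a listed open region, and the TNN window lay in none. Of all 35116 RefSeq windows of this length, 53.7% had a listed region over them. The TNC window was 54.8% G or C with 12 CpG dinucleotides, and the TNN window was 39.2% G or C with 0 CpG. The median over all windows was 58% and 11 CpG. Both strands were searched for 6 motifs. TATANAA, the TATA box, was found in the TNC window from 29 to 23 bases before the start and occurs in 8.41% of all windows. ATGCAAAT, the octamer bound by POU-domain factors, was found there from 189 to 182 bases before the start and occurs in 1.63% of windows. GGGCGG, the GC box, was found from 229 to 224 bases before the start and occurs in 42.6% of windows. The TNN window had no match to these, and neither window had CCAAT (32.0% of windows), the AP-1 site TGANTCA (6.57%) or CATGTG, the core of the M-box of pigment genes (9.42%). Matches did not overlap each other. They are letters in a window and say nothing about which factors were bound.

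Across its regions TNC had about the same signal in both groups, with a median log2 fold change of 0.03, whereas most regions of TNR and TNN had values above 0, with medians of 0.48 and 0.54. Values above 0 were common everywhere, in 72.1% of all nuclear regions. All nuclear regions had a median of 0.23, and relative to it the medians were -0.20 at TNC, 0.25 at TNR and 0.31 at TNN, so the sign at TNC depends on that shift. Differences between the genes were not tested. The table holds no value for a single library, so group means were computed here from its mean over the 4 libraries and its fold change, and they are approximate; the depth of each library is unknown. Signal is in normalized reads, the authors' scaled read counts. Summed over the regions of each gene, the implied signal of TNC was 408 in vehicle and 408 in octanoate, that of TNR was 603 and 841, and that of TNN was 315 and 470. Of the 10 regions summed for TNN, 4 lay past the end of the gene. The strongest of these, inside the span of KIAA0040, held 32.8% of the mean signal summed for TNN. On the log2 scale the octanoate sum was -0.0014 from the vehicle sum at TNC, 0.48 above it at TNR and 0.58 above it at TNN. The same log2 ratio over all 125985 nuclear regions was 0.21. With bulk chromatin, more cells with an open region and more cutting per cell cannot be told apart.

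In the authors' deposited table, 6 of the 53 regions had been tested, meaning that they entered the authors' adjustment of p-values, which required a mean of at least 63.8 normalized reads. Of these 6, 2 passed a DESeq2 adjusted p of 0.05 (Benjamini-Hochberg over 11185 tested regions), 1 at TNR and 1 at the far end of TNN, and both were higher after octanoate. Of all tested regions, 1.02% were called higher and 0 lower (12 lower at an unadjusted p under 0.05). At an unadjusted p under 0.05, 3 of the 6 tested member regions were higher and 0 lower, against 14.8% of all tested regions higher. Because the genes were proposed with these values known, nothing is read from these shares.

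**Figure D1:**
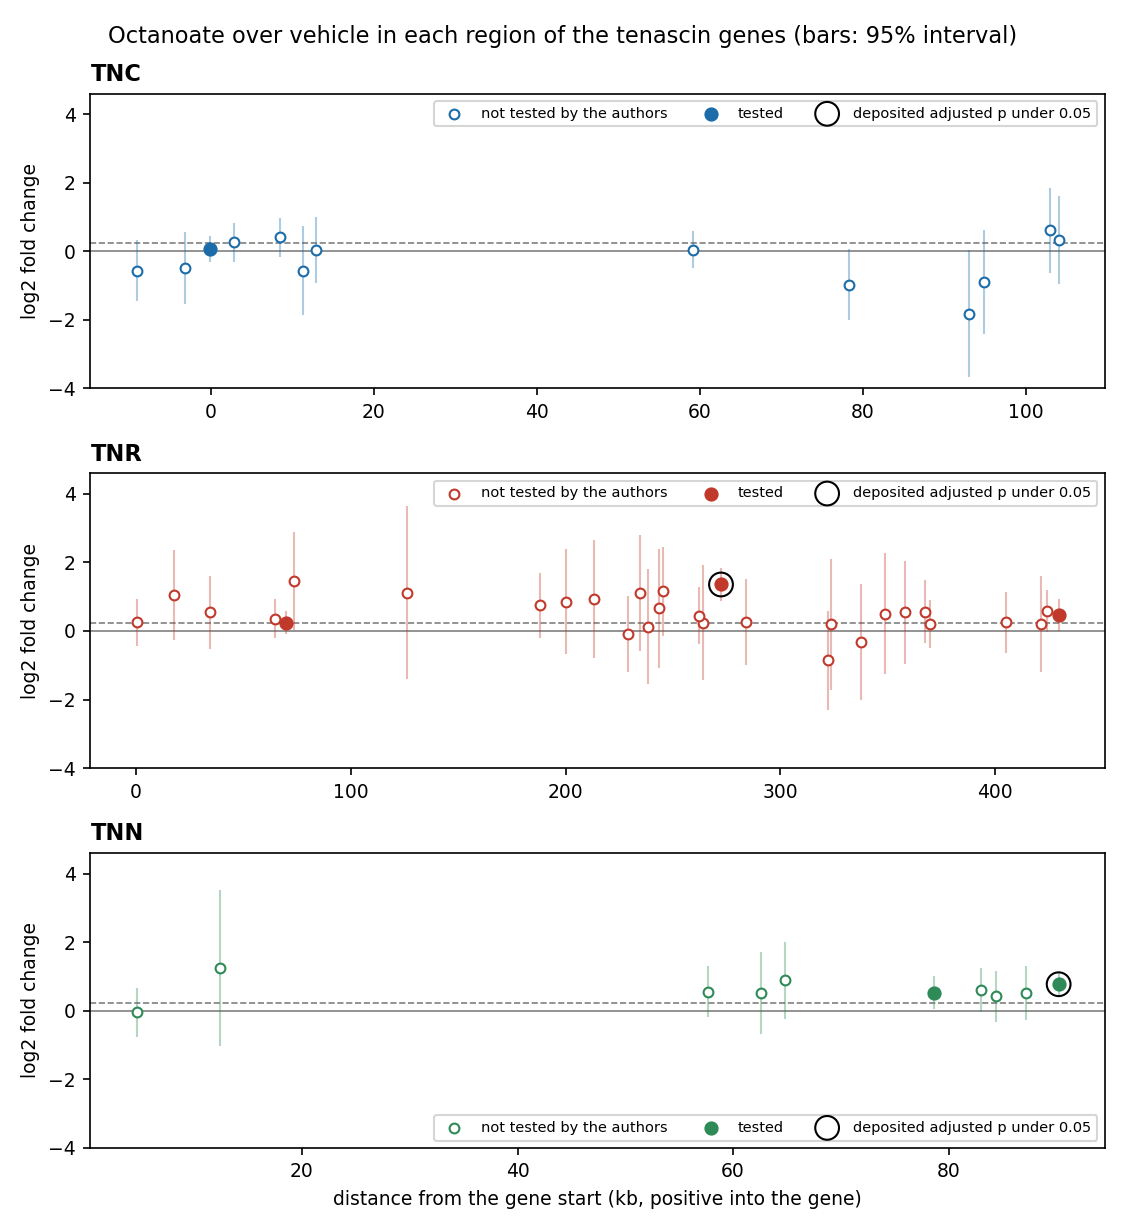
Log2 fold change of octanoate over vehicle (vertical axis) for each open region of TNC, TNR and TNN against distance from the gene start in kb (horizontal axis). Bars are 95% intervals from the deposited standard errors, filled points are regions tested by the authors, rings mark an adjusted p under 0.05, and the dashed line is the median of all nuclear regions, 0.23; the 2 rings sit 272 kb into TNR and 90.2 kb from the start of TNN.

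TNC, the family member best known from melanoma, spans chr9:115019575-115118157 on the reverse strand. The region with its highest mean, chr9:115117257-115119359, covered the start, with 118 normalized reads or 56.2 per kb. The implied group means of this start region were 116 in vehicle and 120 in octanoate. The authors' deposited table gave it a log2 fold change of 0.05 (SE, the standard error, 0.19; DESeq2 adjusted p 0.929). The 95% interval of the fold ran from 0.797 to 1.35, so a doubling of the TNC start region lay outside it. This was the 1 tested region of the gene.

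The other 12 TNC regions had lower means, from 5.75 to 62.6 normalized reads, and each had a 95% interval that held 0. All regions of the table had a median signal of 12.2. Among TNC regions at or above it, the authors' deposited table had its highest log2 fold change, 0.40 (SE 0.29), at chr9:115109277-115110008, 8.51 kb into the gene. Per kb this region had more signal than the one over the start, 77.5 normalized reads. Its implied means were 48.8 in vehicle and 64.6 in octanoate. The lowest of these was -0.97 (SE 0.53) at chr9:115039526-115040110, 78.3 kb into the gene, with implied means of 20.7 and 10.6. A weaker region at chr9:115025060-115025320, outside the naming rule and singled out after its values were seen, had -1.82 (SE 0.94) in the authors' deposited table and a mean of 5.75.

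TNC regions fell into a group within 15 kb of the start and a group beyond it. In the 7 near the start, 4 were above 0 and 3 below, with a median log2 fold change of 0.03 and a range of -0.57 to 0.40. In the 6 farther away, 3 were above 0 and 3 below, with a median of -0.42 and a range of -1.82 to 0.61. This division was made after the values were seen and was not tested. In all, 7 of 13 TNC regions were above 0, against 72.1% of all nuclear regions, and their median was 0.03 with an exact 95% interval over regions of -0.89 to 0.33. Regions are not replicates, and that interval describes the spread between regions of 1 gene only. Of the 13, 7 also overlapped the span of a long noncoding RNA gene, LOC124902255 or LOC101928748, and their signal cannot be assigned to 1 of the annotations.

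TNR, the brain tenascin, spans chr1:175315194-175743595, 428 kb. It is a reverse-strand gene, so its start was taken as the upper end of the span. The region there, chr1:175742929-175743882, had a mean of 37.6 normalized reads and 39.4 per kb, below the 56.2 per kb of the TNC start region. Its implied means were 34.3 in vehicle and 40.9 in octanoate, with a log2 fold change of 0.25 (SE 0.35) in the authors' deposited table, and it was not among the tested regions. An open region was thus listed over the start of a gene whose expression belongs mainly to the nervous system.

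The largest change in a tested region of the tenascin genes lay deep inside TNR, at chr1:175470725-175471842, 272 kb from the start. Its implied mean was 41.8 normalized reads in vehicle and 107 in octanoate, a 2.56-fold rise with a 95% interval of 1.83 to 3.58. The log2 fold change given by the authors' deposited table was 1.36 (SE 0.25, unadjusted p 4.27e-08, DESeq2 adjusted p 0.000119). Among the 11185 tested regions its rank was 4 by p and 2 by log2 fold change. With a mean of 74.5 it was weak for a tested region, above 21.2% of them, and stood for between 581 and 721 reads over the 4 libraries together. The median of all tested regions was a log2 fold change of 0.19. After that shift was subtracted, the adjusted p of this region was 0.0129, and 0.0447% of tested regions were then called higher. Its position relative to TNR exons was not analysed here.

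The regions beside it had lower log2 fold changes, with wide errors. In the authors' deposited table the next listed region below, 10.8 kb away, had a log2 fold change of 0.27 (SE 0.64), and the next above, 7.59 kb away, had 0.24 (SE 0.85). Both were weak, with means of 10.9 and 6.48 normalized reads. The nearest tested regions on either side were 156 kb and 201 kb away. They were the remaining 2 tested regions of TNR.

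One of these, chr1:175672898-175674665, had the highest mean of the TNR regions, 154 normalized reads or 87.2 per kb, 69.8 kb into the gene. Its implied means were 141 in vehicle and 167 in octanoate, and the authors' deposited table gave a log2 fold change of 0.24 (SE 0.17, DESeq2 adjusted p 0.527). The other lay 0.450 kb past the far end of the gene, at chr1:175313430-175314744, with implied means of 65.7 and 89.8. The authors' deposited table listed it at a log2 fold change of 0.45 (SE 0.24, DESeq2 adjusted p 0.354), and it overlapped the span of the long noncoding RNA gene LOC105371623. Neither passed the threshold.

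The remaining 27 TNR regions had not been tested, and 17 of them had a mean under 12.2 normalized reads. Their log2 fold changes ran from -0.86 to 1.45 in the authors' deposited table, with standard errors from 0.30 to 1.28, and 26 of the 27 had a 95% interval that held 0. The exception, outside the naming rule, was chr1:175669668-175670080, with 1.45 (SE 0.73, unadjusted p 0.0468) and a mean of 9.07. Of all 125985 nuclear regions, 4507 were higher and 225 lower at an unadjusted DESeq2 p under 0.05. Of these, 1657 and 12 were among the tested regions. Nothing is read from 1 such region in 27. The lowest value among TNR regions with a mean of at least 12.2 was -0.08 (SE 0.57) at chr1:175514376-175515037 in the authors' deposited table.

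By sign, 27 of the 30 TNR regions were above 0 and 3 were below. Of all nuclear regions 72.1% were above 0, and of the other regions within 1 Mb of TNN and TNR 77.1% were. Their median log2 fold change was 0.48, with an exact 95% interval over regions of 0.25 to 0.66. On the side of the called region towards the gene start, 16 of 17 regions were above 0 with a median of 0.66. On the side towards the gene end, 10 of 12 were above 0 with a median of 0.26. The medians count weak and strong regions alike. The strongest region on the start side, with a mean of 154, had 0.24, and that on the end side, with a mean of 77.7, had 0.45. The highest value on the start side, 1.45, was on a mean of 9.07. The sides, too, were divided after the values were seen, and their difference was not tested. The longest stretch of the gene without a listed region was 61.6 kb, on the side of the start.

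**Figure D2:**
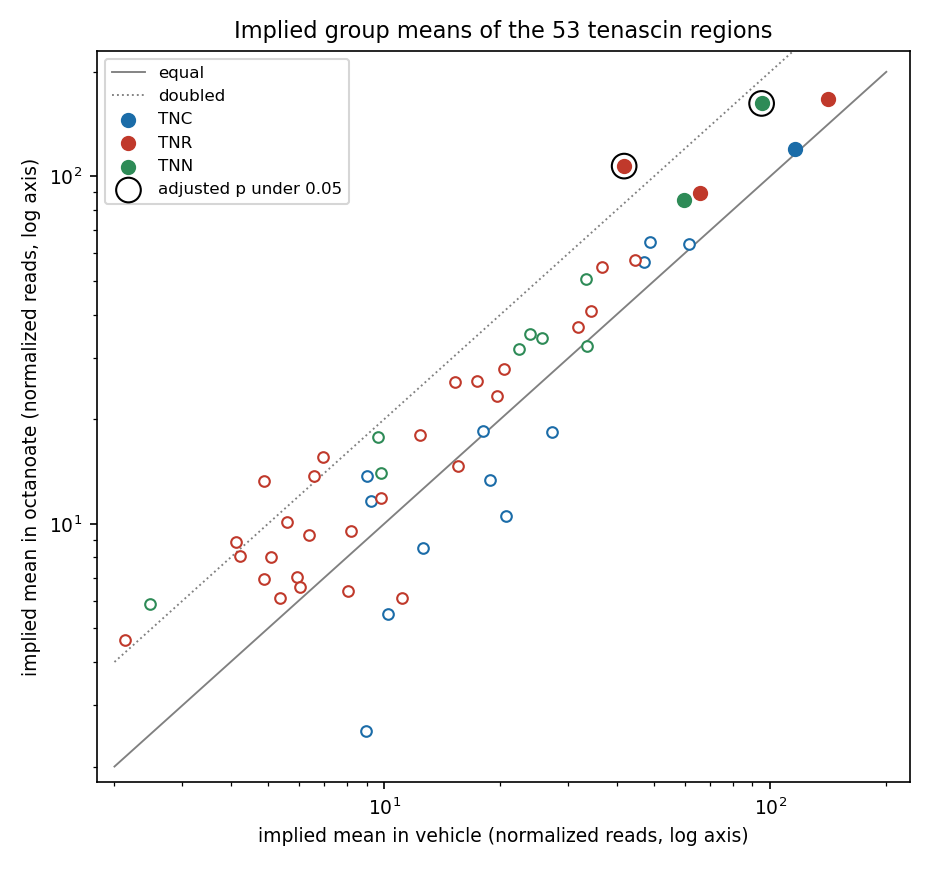
Implied mean in octanoate (vertical axis) against implied mean in vehicle (horizontal axis), in normalized reads on log axes, for the 53 regions; filled points were tested by the authors and rings mark an adjusted p under 0.05. The ringed TNR region, at 41.8 and 107, lies above the dotted line of a doubling, and the TNC start region, at 116 and 120, lies next to the solid line of equality.

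TNN, the tenascin of bone and tumour stroma, spans chr1:175067833-175148075 on the forward strand. The region nearest to its start, chr1:175072070-175072882, began 4.24 kb inside the gene. It had implied means of 33.5 normalized reads in vehicle and 32.5 in octanoate, and a log2 fold change of -0.04 (SE 0.36) in the authors' deposited table. It was the 1 region of TNN below 0. The other 9 were above 0, where 72.1% of all nuclear regions were. Of these 9, 8 lay more than 15 kb from the start, with log2 fold changes from 0.42 to 0.89. Among the 8, 4 lay past the end of the gene. The remaining one of the 9, 12.2 kb into the gene and outside the naming rule, had 1.25 on a mean of 4.18. The median of the 10 regions was 0.54, with an exact 95% interval over regions of 0.42 to 0.89.

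The TNN regions with the highest means lay at its far end. Per kb, a region outside the naming rule and singled out after its values were seen, chr1:175125280-175125662, had 77.0 normalized reads, close to the 77.3 of the called region. The region chr1:175145705-175147202, inside the gene and 78.6 kb from the start, had implied means of 59.6 in vehicle and 85.6 in octanoate. In the authors' deposited table its log2 fold change was 0.52 (SE 0.24, unadjusted p 0.0327, DESeq2 adjusted p 0.283), so it did not pass. The highest value among regions with a mean of at least 12.2 was 0.89 (SE 0.57) at chr1:175132449-175132939 in the authors' deposited table, with implied means of 9.64 and 17.8. The 8 untested regions of TNN had means from 4.18 to 42.0 normalized reads, and each had a 95% interval that held 0.

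The called region at this end, chr1:175157223-175158885, lay 9.15 kb past the end of TNN and inside the span of the next protein-coding gene, KIAA0040 (chr1:175156986-175192987). Its implied means were 95.03 normalized reads in vehicle and 162 in octanoate, a 1.71-fold rise with a 95% interval of 1.33 to 2.198. The authors' deposited table gave a log2 fold change of 0.77 (SE 0.19, unadjusted p 3.42e-05, DESeq2 adjusted p 0.0101). After the shift of all tested regions was subtracted, its adjusted p was 0.380, so this call was lost. It is a member of the TNN set only through the 10 kb extension. Inside the TNN span 1 region was tested, and 0 passed by DESeq2's adjusted p. That tested region was higher at an unadjusted p under 0.05, as were 14.8% of all tested regions.

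The 10 kb limit cut through a stretch of regions at this end of TNN. The first region outside it, 20.7 kb past the gene at chr1:175168794-175170218, had a log2 fold change of 0.71 (SE 0.16, DESeq2 adjusted p 0.00585) in the authors' deposited table. This call, too, was lost after the shift was subtracted, at an adjusted p of 0.356, and with Benjamini-Hochberg adjustment over all regions, at 0.0588. On the other side of TNN the first region outside the limit, 12.2 kb before the gene, had -0.53 (SE 0.29), and the outermost region inside the limit was the one 4.24 kb after the start. At TNC the innermost excluded regions had 0.43 and 0.76, and the outermost included ones 0.33 and -0.56. At TNR the excluded ones had 1.24, on a mean of 5.39, and 0.39, and the included ones 0.45 and 0.25, all as log2 fold changes in the authors' deposited table.

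**Figure D3:**
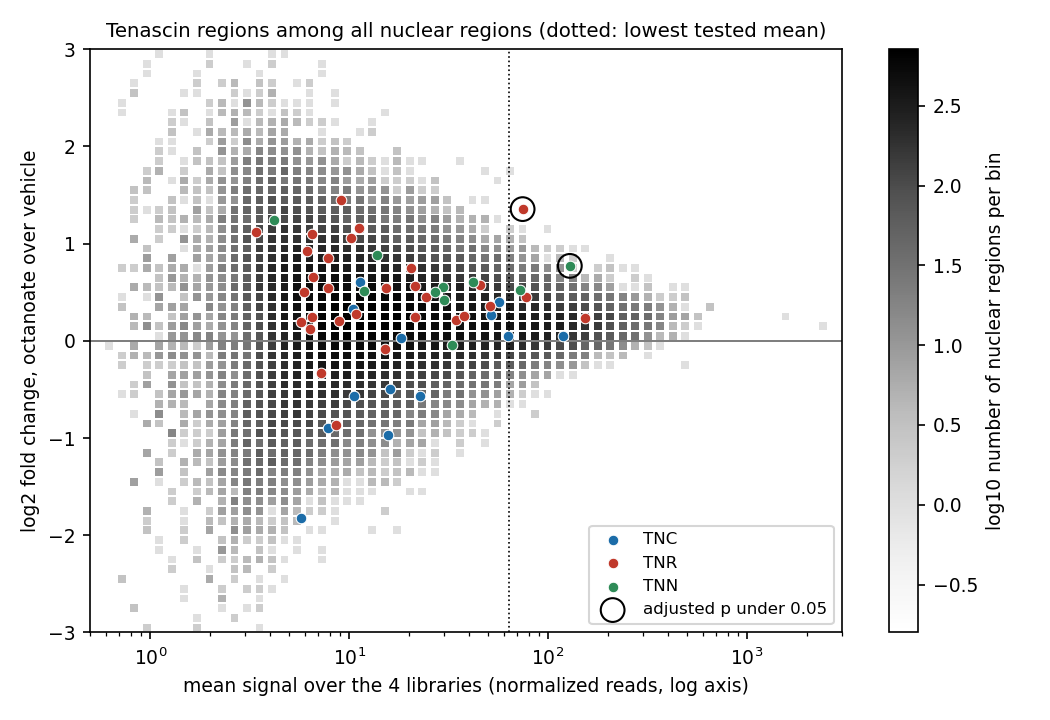
Log2 fold change (vertical axis) against mean signal over the 4 libraries in normalized reads (horizontal log axis); grey squares shade the number of nuclear regions per bin within the axes, coloured points are the tenascin regions and the dotted line marks the lowest tested mean, 63.8. The TNR region at a mean of 74.5 and a log2 fold change of 1.36 sits at the upper edge of the grey cloud, and the TNC start region, at a mean of 118 and 0.05, lies inside it.

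The medians were set beside those of other genes and of the surroundings. Among 1836 protein-coding genes with at least 10 regions counted the same way, the median log2 fold change of a gene was itself 0.22 at the median. TNC was above 11.5% of these genes, TNR above 92.9% and TNN above 96.3%, as a description. Within 1 Mb of TNC, 140 other regions had a median of 0.29. Within 1 Mb of the TNN and TNR pair, another 140 had a median of 0.35. Chromosome 9 as a whole had 0.21 and chromosome 1 had 0.25. The TNC value was thus below its surroundings, and the TNR and TNN values were above theirs. These differences were not tested, since the table has no value per library. Listed regions were denser at all 3 genes, at 10.96 (TNC), 6.69 (TNR) and 9.98 (TNN) per 100 kb, than at the median protein-coding gene, at 5.28.

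**Figure D4:**
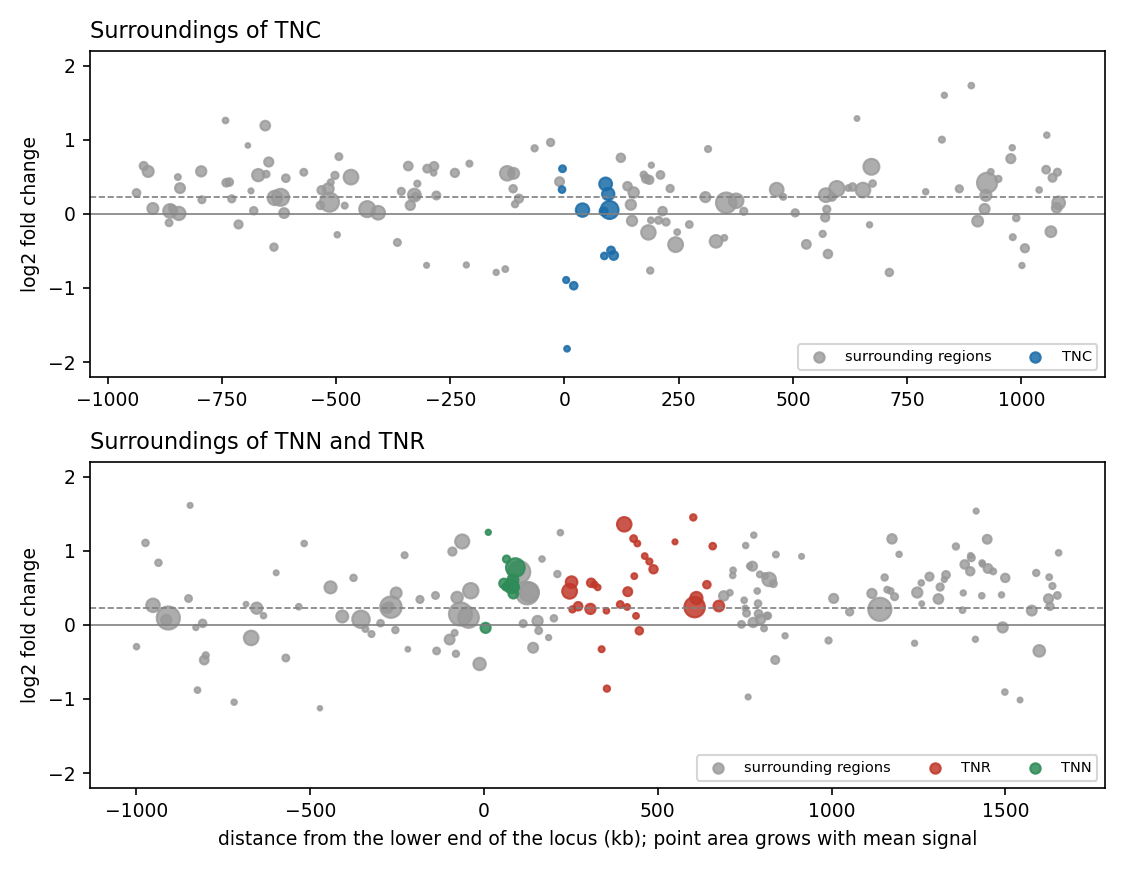
Log2 fold change (vertical axis) of every nuclear region within 1 Mb of TNC (upper panel) and of TNN and TNR (lower panel) against distance in kb from the lower end of the locus (horizontal axis); point area grows with mean signal and the dashed line is the median of all nuclear regions, 0.23. TNC points straddle 0 with a median of 0.03, while TNN and TNR points have medians of 0.54 and 0.48 among grey neighbours with a median of 0.35.

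Genes that bind, signal from or cut tenascins, other matricellular genes and the family member TNXB were counted in the same way as partner genes. The list had 35 genes, of which 34 had a listed region and 20 a tested one. Over their 263 regions the median was a log2 fold change of 0.22, against 0.23 for all nuclear regions. Of 35 tested regions, 1 passed the deposited adjusted p of 0.05 (DESeq2), where 1.02% of all tested regions were called higher, and 5 were higher and 0 lower at an unadjusted p under 0.05, where 14.8% of all tested regions were higher. The count of 5 is near that share and is no result about the partner genes. The region that passed lay in EGFR, the growth factor receptor that EGF-like repeats of TNC can bind. In the authors' deposited table it had a log2 fold change of 0.70 (SE 0.19, DESeq2 adjusted p 0.0344), at chr7:55132504-55134277. After the shift of all tested regions was subtracted, its adjusted p was 0.802.

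The next smallest p-values belonged to matrix and receptor genes that did not pass. A region of ACAN, the proteoglycan aggrecan, whose lectin domain binds TNR, had 0.55 (SE 0.16, DESeq2 adjusted p 0.0565) in the authors' deposited table. ANXA2, a cell surface receptor for TNC, had a pair of regions with 0.53 and 0.49 (DESeq2 adjusted p 0.172 and 0.238), and SPARC, another matricellular gene, had 0.33 (DESeq2 adjusted p 0.292), in the authors' deposited table.

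By role, the median log2 fold change was 0.22 over 86 regions of the 8 integrin subunits, and 0 of 7 tested regions passed. The 7 other receptors had 73 regions with a median of 0.22 and 1 of 12 tested regions passed. The 6 matrix partners had 48 regions with a median of 0.18, and 0 of 5 tested regions passed. The 7 matricellular genes had 27 regions with a median of 0.33 and 0 of 6 passed, with POSTN at 0 listed regions. The 6 proteases had 22 regions with a median of 0.26 and 0 of 5 passed. TNXB, the family member of connective tissue outside the 3 genes, had 7 regions with a median of 0.18 and 0 tested.

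**Figure D5:**
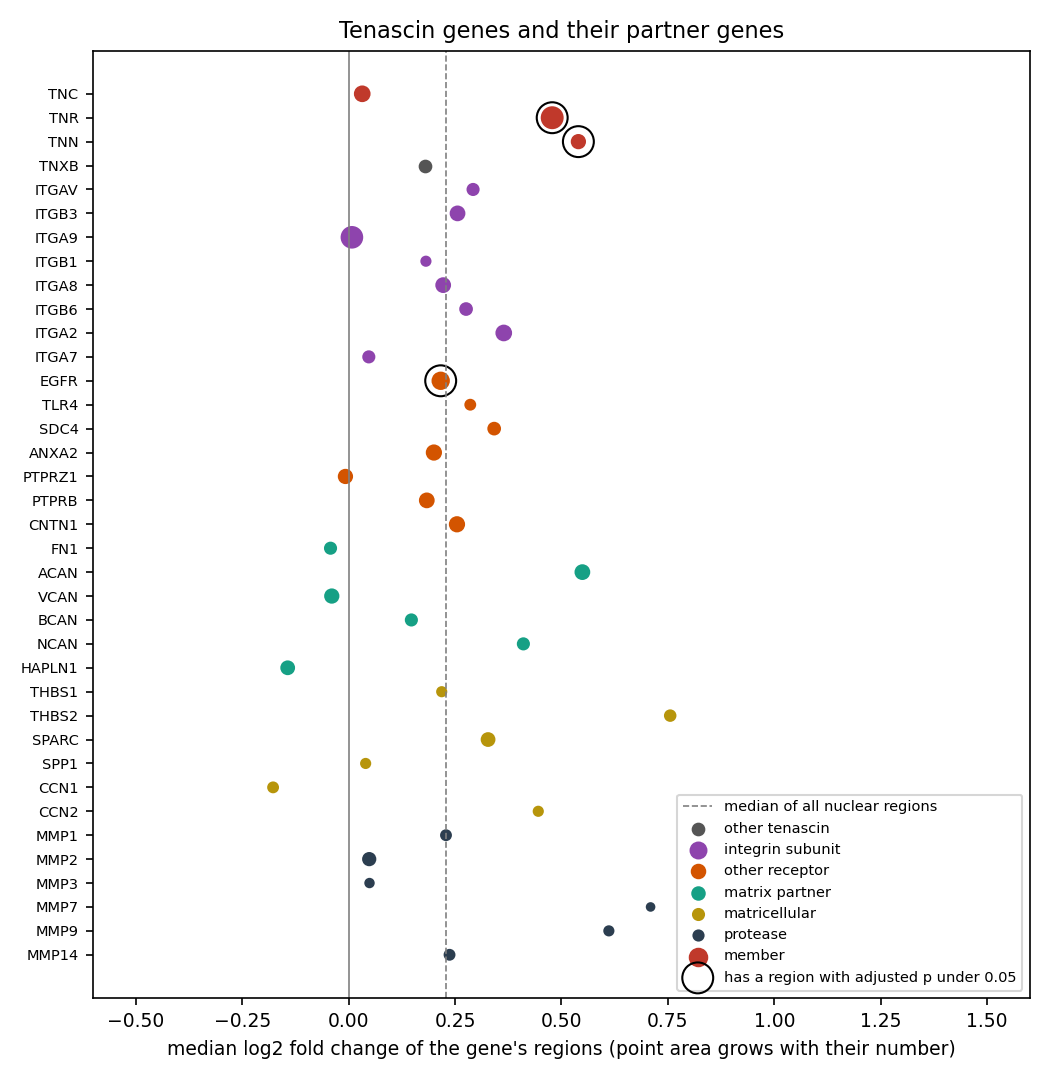
Median log2 fold change of each gene's regions (horizontal axis) for the tenascin genes and 34 partner genes with a listed region (vertical axis); point area grows with the number of regions, rings mark genes with a region at an adjusted p under 0.05 and the dashed line is the median of all nuclear regions. TNR and TNN, at 0.48 and 0.54, lie right of most partner genes, and TNC, at 0.03, lies left of most.

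Markers of the labelled cell type were counted by whether a listed region came to within 1 kb of a gene's ends. Of 7 melanocytic genes 6 had such a region, with highest means from 14.6 (MLANA) to 168 (MITF), and TYR, which encodes tyrosinase, had none. Of 9 genes of blood, epithelium, endothelium and glia, 3 had one: PTPRC, CD3E and OLIG2. Their highest means were 4.68, 70.1 and 21.8 normalized reads. The CD3E value was above those of SOX10 (15.7), PMEL (34.2), MLANA and S100B (27.7), and below those of MIA (118) and MITF. How many cells these regions stand for was not tested.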

How the data were processed

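ATAC-seq libraries of A375 cells, 2 with octanoate and 2 with vehicle, were grouped by sample title. Per the submitters' processing notes, the tools used were Trim Galore, cutadapt, FastQC, Bowtie2, Picard, MACS2, featureCounts, DESeq2 and bedtools 2.29.1, with build hg38; parameters, read shifting for Tn5 and the merging of peaks are not given in the sources used here. The authors deposited 1 table of regions. Its signal is, per the file headers, DESeq2's base mean, that is, normalized reads averaged over all 4 libraries. The deposited log2 values are fold changes of octanoate against vehicle, each with a standard error. Its deposited score is the Wald statistic, and its deposited p-value is that score's two-sided normal p. The deposited adjusted p-value equalled a Benjamini-Hochberg adjustment of 11185 regions, those whose mean reached 63.8, and the 114801 others, listed at 1, were treated as not tested.

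The test is the authors' own DESeq2 test over the whole table, and no test of the members was made here. The 3 genes and all lists were chosen with earlier results of these data known. Region starts were moved to count from 1, since the mitochondrial region begins at 0. Gene spans are from RefSeq GRCh38.p14. Named were every tested member region, the region at or nearest each start, and the strongest, highest and lowest regions per gene, the last pair among means of at least 12.2. Regions that border the TNR call or the 10 kb limit, and those marked in the text, were named outside this rule, after their values were seen. Partner genes were named where a region passed, or for the 5 smallest p-values. Starts of marker genes were replaced by either gene end, because many of them had no entry in the table of starts, a departure from the plan; the start of TNR, also without an entry, was taken as the upper end of its span from background knowledge of its strand. Intervals are the log2 fold change plus or minus the 95% normal quantile of the deposited standard error, and those of medians are exact binomial. Implied group means assume equal weight for both groups.

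Exact differences between low sums gave 4 values of 1 read, 0.413 to 0.512 normalized reads. Of 1000 sums of regions with a mean under 4, 100% were whole-read sums within 1 millionth, against 4.1% after a random offset. No value was assigned to a library, so the depth per library is unknown, and read ranges cover counting only. Functions were tested on simulated data. Python 3.11.15, pandas 2.3.3 and scipy 1.17.1 were used. Alternatives were other adjustments, thresholds, centrings, signal minimums and extensions.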

Additional observations from a re-analysis of the deposited data

How the results depend on the processing

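The 2 calls at the tenascin genes became 1 with Benjamini-Hochberg over all regions, 1 at an adjusted p of 0.01, 1 after centring on the tested median, 1 with no extension of the spans and, chosen after seeing the data, 1 without regions in another protein-coding gene. The TNR region was the call kept in each, with an adjusted p of 0.000896 over all regions and, after centring, 0.0129 (tested median) or 0.0274 (nuclear median). The region past TNN had 0.0960, 0.380 and 0.662 under these. At an adjusted p of 0.1 there were 2 calls, and with a 50 kb extension 3. The single call at partner genes became 0 over all regions, 0 at 0.01 and 0 after centring, and 2 at 0.1; as deposited (DESeq2), 5 of 35 tested partner regions were higher at an unadjusted p under 0.05, where 14.8% of all tested regions were.

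Centring on the nuclear median of 0.23, which subtracts 1 constant, gave medians of -0.20 (TNC) and -0.0071 (partner genes), both reversed, and of 0.25 (TNR), 0.31 (TNN) and 0.19 (all member regions). Under other extensions and a signal minimum the medians ran from 0.03 to 0.05 at TNC, 0.45 to 0.50 at TNR and 0.51 to 0.54 at TNN. Chosen after seeing the data, the TNR median without its smallest-p region was 0.45, and the TNN median without the region in KIAA0040 was 0.52.

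No paired analysis was possible because all columns summarise the 4 libraries together. Leaving out a replicate, another scaling and count tests need single libraries and were not run. The 47 untested regions had means under 63.8 normalized reads, and 46 of them had a 95% interval that held 0.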

Other observations

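The span of KIAA0040, the protein-coding gene next to the far end of TNN, had 4 listed regions, 3 of them tested, and 2 with an adjusted p under 0.05 in the authors' deposited table (DESeq2), both higher after octanoate, where 1.02% of all tested regions were called higher. Both calls were lost after the median of tested regions was subtracted, at adjusted p-values of 0.380 and 0.356, and with Benjamini-Hochberg adjustment over all regions, at 0.0960 and 0.0588. The region chr1:175168794-175170218 inside it had an implied mean of 135 normalized reads in vehicle and 222 in octanoate. The region over the upper end of KIAA0040, chr1:175190871-175194089, had a log2 fold change of 0.43 (SE 0.16, DESeq2 adjusted p 0.137) in the authors' deposited table, and a mean of 190. Between the limits of TNN and TNR, 12 regions, the other 3 of KIAA0040 included, had a median log2 fold change of 0.26, with 9 above 0. Both are near the values of all nuclear regions, a median of 0.23 with 72.1% above 0.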
